A study of Rattus norvegicus with 4 samples.

Results

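The stretch of rat chromosome 2 described here runs from 185 to 215 Mb of the build rn6 and makes up 11.3% of the length of that chromosome. Its members are the nucleosome positions whose center lies between these bounds, taken from 3 tables of positions. The table of the control pair holds 102197 of its 868880 positions in the segment, that of cyproterone acetate 112982 of 969963 and that of tamoxifen 106418 of 895443. The bounds are round coordinates and not a cutoff on a measured value, but the segment was chosen with earlier results of these data known. In the control table the last center before the segment is at 184999719 and the first inside at 185000042. The last inside is at 214999802 and the first after at 215000012. The spermatozoa came from the cauda epididymidis of randomly bred male Holtzman rats aged 75 days. The cyproterone acetate group was dosed orally with 20 mg per kg daily for 60 days, the tamoxifen group with 0.4 mg per kg daily for as long, and the control group drank only sterile water. Each group had 6 animals, without a statement in the labels of how many were pooled for a library. There were 2 control libraries and 1 library for each treatment, so a treatment has no replicate, no test between groups was possible, and the spread between the 2 controls is the only replicate spread.

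During the last steps of sperm formation most histones are exchanged for protamines, which pack the DNA far more tightly, and only a minor part of the genome leaves the testis on nucleosomes. Micrococcal nuclease cuts the DNA between nucleosomes and spares the DNA wrapped on them, so that sequenced mononucleosome fragments show where histones remain. Cyproterone acetate blocks the androgen receptor and tamoxifen modulates estrogen receptors, and cells of the testis and epididymis carry receptors of both kinds. In such libraries a larger share of cells with a nucleosome at a place and more nucleosomes there per cell cannot be told apart. No gene annotation or sequence of rn6 was used here, so windows are given by coordinates and are not tied to genes.

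A read number is the deposited summit occupancy divided by the value of 1 read in that library, and it comes in steps of 0.5 reads. Sums of it run over the summits of called positions only, so they are not counts of all reads of a library. By such sums the segment held 129896 of 1067555 reads of the shallower control library on this chromosome, or 12.2% (95% exact binomial interval 12.1% to 12.2%). The deeper control held 141011 of 1170574 reads there, or 12.0% (12.0% to 12.1%). With cyproterone acetate it was 199402 of 1563294 reads, or 12.8% (12.7% to 12.8%), and with tamoxifen 169086 of 1311684, or 12.9% (12.8% to 12.9%). All 4 shares lay above the 11.3% of the length, and both treated shares lay above both control shares. These intervals and those below cover counting error only, since copies made by PCR carry no molecular identifiers. The binomial ones treat the sums, rounded to whole numbers, as counts of independent reads.

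The typical window of the segment held more called positions and more reads than the typical window elsewhere on the chromosome. Windows of 100 kb were kept where every table had at least 20 positions, which left 294 of the 300 windows in the segment and 2310 elsewhere. The median window of the segment held 385 positions in the control table, against 346 on the rest of the chromosome (1.11 times). In the cyproterone acetate table it held 427 against 390 (1.09 times) and in that of tamoxifen 397 against 354 (1.12 times). The median window of the shallower control held 478 reads against 418.5 (1.14 times) and that of the deeper control 519.75 against 458.75 (1.13 times). It held 698.5 reads against 598 with cyproterone acetate (1.17 times) and 602.75 against 496.5 with tamoxifen (1.21 times). The 2 controls thus differed by far less in this ratio than either differed from 1, and both treated libraries lay above them. Under a limit of 3 reads per position the order changed: the controls were at 1.14 and 1.14, cyproterone acetate was below them at 1.13 and tamoxifen above them at 1.15. Over totals in place of medians the ratios were smaller, 1.09 and 1.08 in the controls, 1.15 with cyproterone acetate and 1.17 with tamoxifen.

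Cut into blocks of 30 Mb laid out from the segment, the chromosome gives 10 blocks, of which the first and the last are shorter. By the median over its kept windows the segment ranked first of the 10 in all 3 tables for positions and in all 4 libraries for reads. By the sum of positions the next 30 Mb held slightly more than the segment in the control table, 102246, and in that of cyproterone acetate, 114779, and slightly fewer in that of tamoxifen, 105732. The block just before it was among the 2 lowest in each of these measures, with medians of 317.5 positions in the control table, 386.25 and 423.5 reads in the controls, 535.5 with cyproterone acetate and 450.25 with tamoxifen. The block just after it held 365 positions, 439 and 482.5 reads in the controls, 635 with cyproterone acetate and 527 with tamoxifen. The median of the segment was therefore farther from that of the block before it than from that of the block after it. These medians over whole blocks do not show a step at either bound. In the control table the median window held 366.5 positions in the first megabase of the segment and 300.5 in the last.

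**Figure D1:**
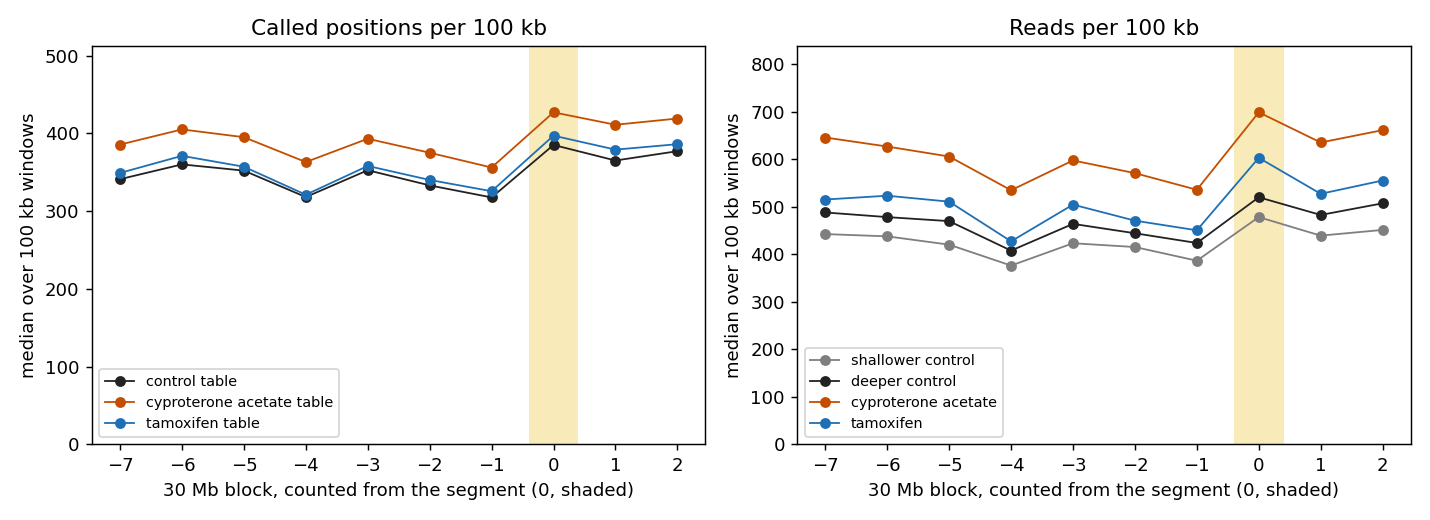
Median called positions (left, by table) and reads (right, by library) per 100 kb window in the 10 blocks of 30 Mb of chromosome 2, numbered by their distance in blocks from the segment at 0; the blocks at both ends are shorter. Every line is highest at the segment, with 385 positions in the control table and 478 to 698.5 reads per window in the 4 libraries, and lies low in the block before it.

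Inside the segment the density was uneven. From 185 to 190 Mb the median window held 417.5 positions in the control table, and 512.25 and 565 reads in the controls, 817 with cyproterone acetate and 710.25 with tamoxifen. From 190 to 195 Mb it held 272 positions, and 355.5, 363.5, 472.75 and 381.5 reads in the same order, fewer than the median window of the rest of the chromosome in every library. The other 4 parts of 5 Mb were close to each other, with 382.5 to 394.5 positions, 433.5 to 495.25 and 514.5 to 545 reads in the controls, 622.5 to 793 with cyproterone acetate and 550.75 to 669 with tamoxifen. By the median over kept windows the megabase from 197 to 198 Mb was the thinnest, at 146 positions in the control table. By total reads the thinnest was that from 213 to 214 Mb, where only 6 windows were kept. It held 2034 and 2372 reads in the controls, 2966 with cyproterone acetate and 2502 with tamoxifen.

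The windows of the segment varied more than those elsewhere, although their median was higher. The coefficient of variation of the reads per window was 0.313 in each control, against 0.259 and 0.259 on the rest of the chromosome. It was 0.367 with cyproterone acetate against 0.281, and 0.370 with tamoxifen against 0.295. Windows with more reads than the median of the rest made up 67.3% to 68.7% of the segment in the 4 libraries. At the other end, 9.86% of the windows had under 0.5 times the median positions of the rest in the control table, against 5.97% of the windows elsewhere. The 6 windows left out for too few positions start at 195300001, 208400001, 213100001, 213200001, 213300001 and 213400001, and the last 4 of these adjoin and held 1 to 7 positions each in the control table.

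The widest gaps between neighbouring centers were at nearly the same places in all 3 tables. The widest gap of the control table ran from the center at 195355152 to that at 195445352, or 90.2 kb, and there the gap was 90.14 kb with tamoxifen and 91.82 kb with cyproterone acetate. A gap of 86.3 kb from 200832317 in the control table was 86.8 kb with tamoxifen and 85.8 kb with cyproterone acetate. The widest gap of the cyproterone acetate table, 105.52 kb, ran from 213391842 to 213497362, where the control table had 79.8 kb from 213426742.

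At the dense end, the window chr2:194700001-194800000 had the most control reads of the segment, 993.5 (shallower) and 1048.5 (deeper), with 1547.5 reads in the cyproterone acetate library and 1143.5 in the tamoxifen library. It lies in the part that was thin otherwise, with a median of 272 positions, and its 385 positions were more than that. Against the median window of the segment, also of 385 positions, its positions were fuller and not more numerous. Next came chr2:195000001-195100000, with 915 and 896 reads in the controls, 1222 with cyproterone acetate and 936 with tamoxifen on 319 positions. On the log2 scale the first was at 0.13 with cyproterone acetate and -0.04 with tamoxifen, and the second at -0.03 and -0.15. At the sparse end, chr2:196800001-196900000 held 15.5 and 30 control reads, 40 with cyproterone acetate and 24 with tamoxifen, too few to tell a ratio from counting error.

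**Figure D2:**
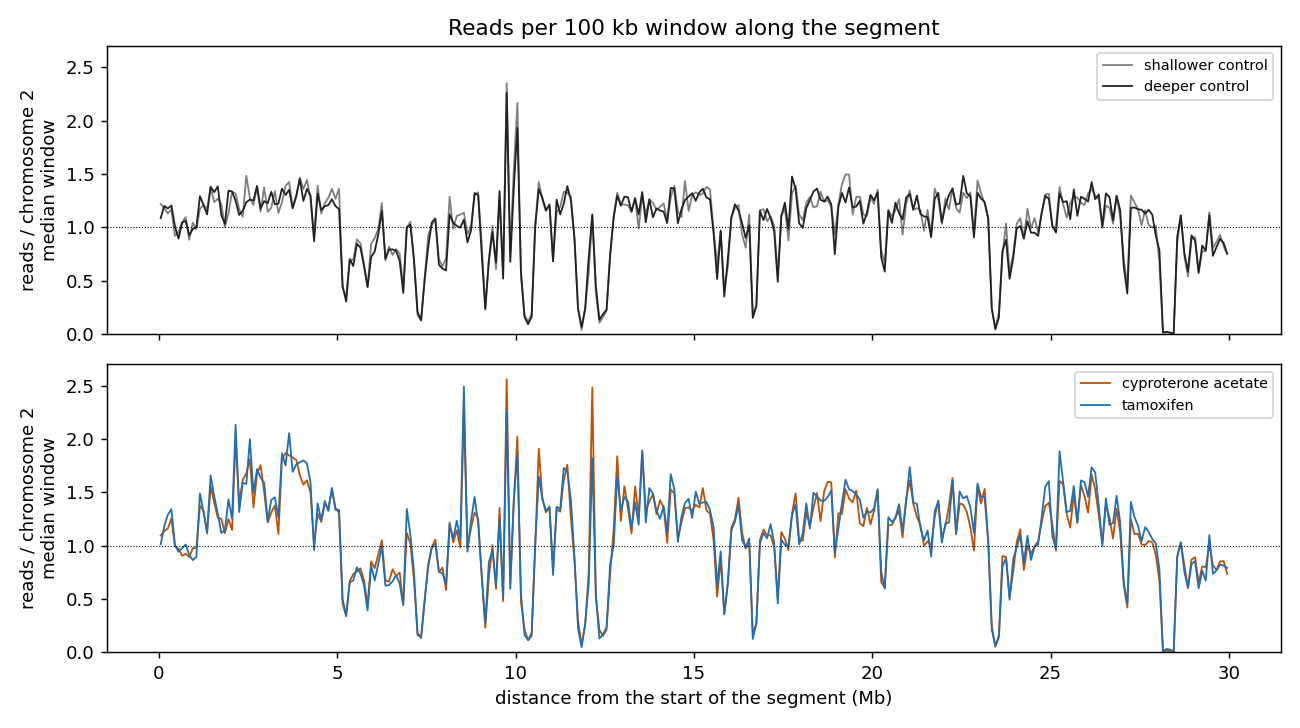
Reads per 100 kb window along the segment, as multiples of each library's median window on chromosome 2 (dotted line at 1), for the 2 controls (top) and the 2 treated libraries (bottom), against the distance from the segment's start in Mb. The 4 libraries dip at the same places, both controls reach their highest windows near 9.7 and 10 Mb, and the treated libraries stand above the controls between about 2 and 5 Mb.

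The reads per position in the control libraries differed little between the segment and the rest of the chromosome, and in the treated libraries they were higher in the segment. The mean was 1.88 reads per position with a read against 1.85 elsewhere in the shallower control, and 1.82 against 1.78 in the deeper one. It was 2.13 against 1.93 with cyproterone acetate and 2.00 against 1.85 with tamoxifen. In the controls the surplus of reads in the segment was thus mainly one of positions, while in the treated libraries it was one of positions and of reads at them. Of the positions with a read, 49.3% (shallower control), 49.0% (deeper control), 42.1% (cyproterone acetate) and 45.8% (tamoxifen) had 1 read or less in the segment, against 50.4%, 50.7%, 45.6% and 48.7% elsewhere.

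The fullest positions held a larger part of the reads in the segment than elsewhere, in every library. Positions with 10 or more reads numbered 103 and 80 in the controls, 526 with cyproterone acetate and 419 with tamoxifen. They held 1.08% and 0.808% of the control reads of the segment, against 0.736% and 0.360% elsewhere. With cyproterone acetate they held 4.43% of the reads, against 1.90% elsewhere, and with tamoxifen 4.48%, against 1.83%. The treated libraries are deeper, which alone moves positions past a fixed number of reads. Their larger percentages are therefore no measure against the controls. Within each library the segment was above the rest. The multiple was similar in the deeper control and the treated libraries, and smaller in the shallower control. The fullest position of the segment had 34 reads in the shallower control, 48 in the deeper one, 166.5 with cyproterone acetate and 171.5 with tamoxifen.

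The positions fullest in the controls differed in what the treated libraries held there. The position at 193572927 had 34 and 26 control reads, and within 50 bp of it there were 166.5 reads with cyproterone acetate and 171.5 with tamoxifen. The position at 197080457 had 28.5 and 44 control reads and 56 and 50 treated reads, so that all 4 libraries were full there. At 195077742 the controls had 32.5 and 22.5 reads, cyproterone acetate 4 and tamoxifen 17. The neighbouring positions at 197079757 and 197079842 show how far the controls can part from each other at a single place, with 14 against 48 and 10.5 against 45 reads.

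Neighbouring positions were slightly closer in the segment. The median distance between centers was 195 bp against 200 bp on the rest of the chromosome in the control table, 180 against 188 bp in the cyproterone acetate table and 188 against 195 bp in the tamoxifen table. Between 150 and 250 bp, a range around the distance from one nucleosome to the next in an array, lay 39.8% of the distances in the control table, against 37.9% elsewhere. The cyproterone acetate table gave 42.7% against 40.8% and that of tamoxifen 40.6% against 38.3%. The most frequent distance was 140 to 149 bp in the control table and 130 to 139 bp in both treatment tables, inside and outside the segment. A denser set of positions gives shorter distances, and with only the positions of 2 or more reads the medians were 310 against 335 bp, 220 against 235 bp and 250 against 270 bp.

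Runs of at least 10 consecutive distances of 150 to 250 bp were rare everywhere. The segment had 8 in the control table, 15 in the cyproterone acetate table and 14 in the tamoxifen table. Per 100000 positions that is 7.83, 13.3 and 13.2, against 5.22, 9.22 and 7.73 on the rest of the chromosome. The longest run of the control table held 12 positions from 188883932 to 188886002, and with tamoxifen it held 13 positions from 188714842 to 188717202, both in the dense part between 185 and 190 Mb. The cyproterone acetate table had its longest run, of 14 positions, from 207144012 to 207146407. Numbers this small carry a counting error that is large beside the difference.

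**Figure D3:**
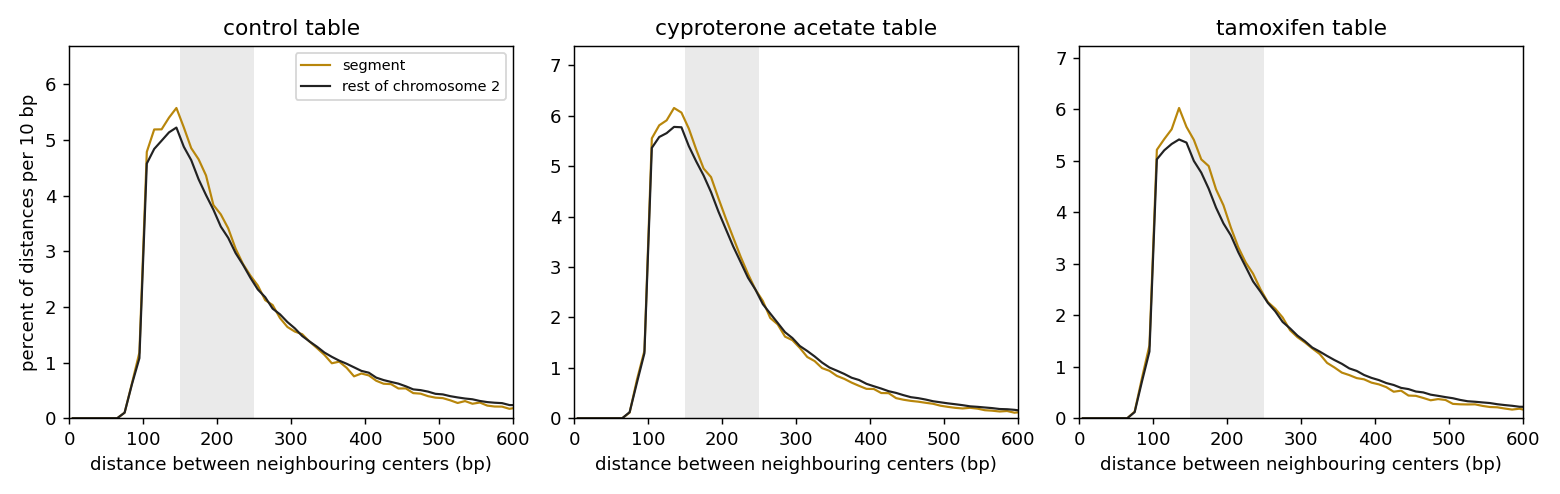
Percent of neighbouring centers per 10 bp of distance in each of the 3 tables, for the segment and the rest of chromosome 2; the grey band marks 150 to 250 bp. The curves have the same shape and the same peak, and the segment lies above the rest between about 100 and 200 bp and below it beyond about 350 bp.

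Fuzziness, the authors' score of how widely the reads of a position scatter, was slightly higher in the segment. At positions with 3 or more reads its median was 45.2 with cyproterone acetate against 44.5 elsewhere, and 44.4 with tamoxifen against 43.8. On the side of the pooled controls it was 46.7 against 46.4 in the cyproterone acetate table and 46.8 against 46.5 in the tamoxifen table. The differences of 0.79, 0.59, 0.22 and 0.24 are small beside the range of single positions, which ran from 34.5 at the 10th percentile to 54.6 at the 90th with cyproterone acetate. Where both sides had equal read numbers, the log2 fuzziness ratio in the authors' deposited tables had medians of -0.08 with cyproterone acetate, -0.12 with tamoxifen and -0.02 between the controls, against -0.09, -0.13 and -0.03 on the rest of the chromosome. In the authors' deposited tables the median summit distance was 20 bp with cyproterone acetate, 20 bp with tamoxifen and 30 bp between the controls, both here and on the rest of the chromosome.

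The share of reads in the segment was higher with each treatment than in the pooled controls, by an amount small beside that of single windows. On the log2 scale the share differed by 0.08 with cyproterone acetate (counting interval 0.07 to 0.08) and by 0.09 with tamoxifen (0.08 to 0.10). The shallower and the deeper control differed by 0.01. Set against 1 control at a time, cyproterone acetate was at 0.07 over the shallower and 0.08 over the deeper control, and tamoxifen at 0.08 and 0.10. With at most 3 reads counted per position these values were 0.02 for cyproterone acetate and 0.05 for tamoxifen, against 0.02 for the control pair. Under that limit cyproterone acetate was thus no farther from 0 than the controls were from each other, and tamoxifen was. The limit was the same in each library, whatever its depth, and each control was limited on its own. Of the positions with a read in the segment, 5.95% had 5 or more with cyproterone acetate and 4.45% with tamoxifen. In the shallower and deeper control it was 3.88% and 2.81%, so the limit did not act alike on the libraries.

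Over 100 kb windows, log2 read ratios were centred on the median window of the chromosome. The median of the segment was 0.03 with cyproterone acetate, 0.08 with tamoxifen and 0.01 between the controls. Counting at most 3 reads per position, these became 0.0029, 0.046 and 0.023, so that cyproterone acetate lay below the control pair. With all reads counted, the median with cyproterone acetate was 0.049 over the deeper control alone and 0.038 over the shallower one alone. Among the 10 blocks the segment had rank 1 for both treatments and rank 3 for the control pair. The ratios spread more in the segment than elsewhere with the treatments, with an SD of 0.192 against 0.137 for cyproterone acetate and 0.194 against 0.145 for tamoxifen. The control pair had an SD of 0.125 in both. Beyond what counting gives, the SD was 0.172 against 0.107, 0.172 against 0.113 and 0.0589 against 0.0607.

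Windows past 0.35 on the log2 scale, a limit taken from earlier work on the control pair of these data, were more frequent in the segment than on the rest of the chromosome. With cyproterone acetate 19 of its 294 windows were higher, or 6.46%, against 1.69% of the chromosome as a whole and 25 of 2310 windows (1.08%) outside the segment. With tamoxifen 21 windows were higher, or 7.14%, against 1.96% of the chromosome and 30 windows (1.30%) outside. The segment thus held 19 of the chromosome's 44 higher windows with cyproterone acetate and 21 of its 51 with tamoxifen. The control pair had 1 higher window in the segment, or 0.340%, against 0.307% of the chromosome. No window was lower than -0.35 with cyproterone acetate (0.23% of the chromosome), 3 were with tamoxifen (0.96%) and 2 in the control pair (0.614%). Both treatments are set against the same controls, so the values of one are no check on the other. Under the limit of 3 reads per position, 4 windows of the segment (1.36%) were above 0.35 with each treatment and none in the control pair, against 0.346%, 0.384% and 0.23% of the chromosome for cyproterone acetate, tamoxifen and the control pair. Outside the segment 5, 6 and 6 of the 2310 windows were above it.

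The higher windows were not spread evenly. From 185 to 190 Mb there were 9 of them with cyproterone acetate and 10 with tamoxifen, and from 195 to 200 Mb 8 and 4. The other 4 parts of 5 Mb had 0 or 1 each with cyproterone acetate and 1 to 3 with tamoxifen. The median log2 ratio was 0.12 and 0.17 from 185 to 190 Mb, 0.15 and 0.15 from 195 to 200 Mb, and -0.03 with either treatment in the thin part between them. The control pair was at -0.00, -0.01 and 0.06 in these 3 parts. From 200 Mb on the medians were 0.02, 0.04 and 0.01 with cyproterone acetate, 0.07, 0.06 and 0.05 with tamoxifen and 0.03, 0.03 and -0.02 in the control pair.

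**Figure D4:**
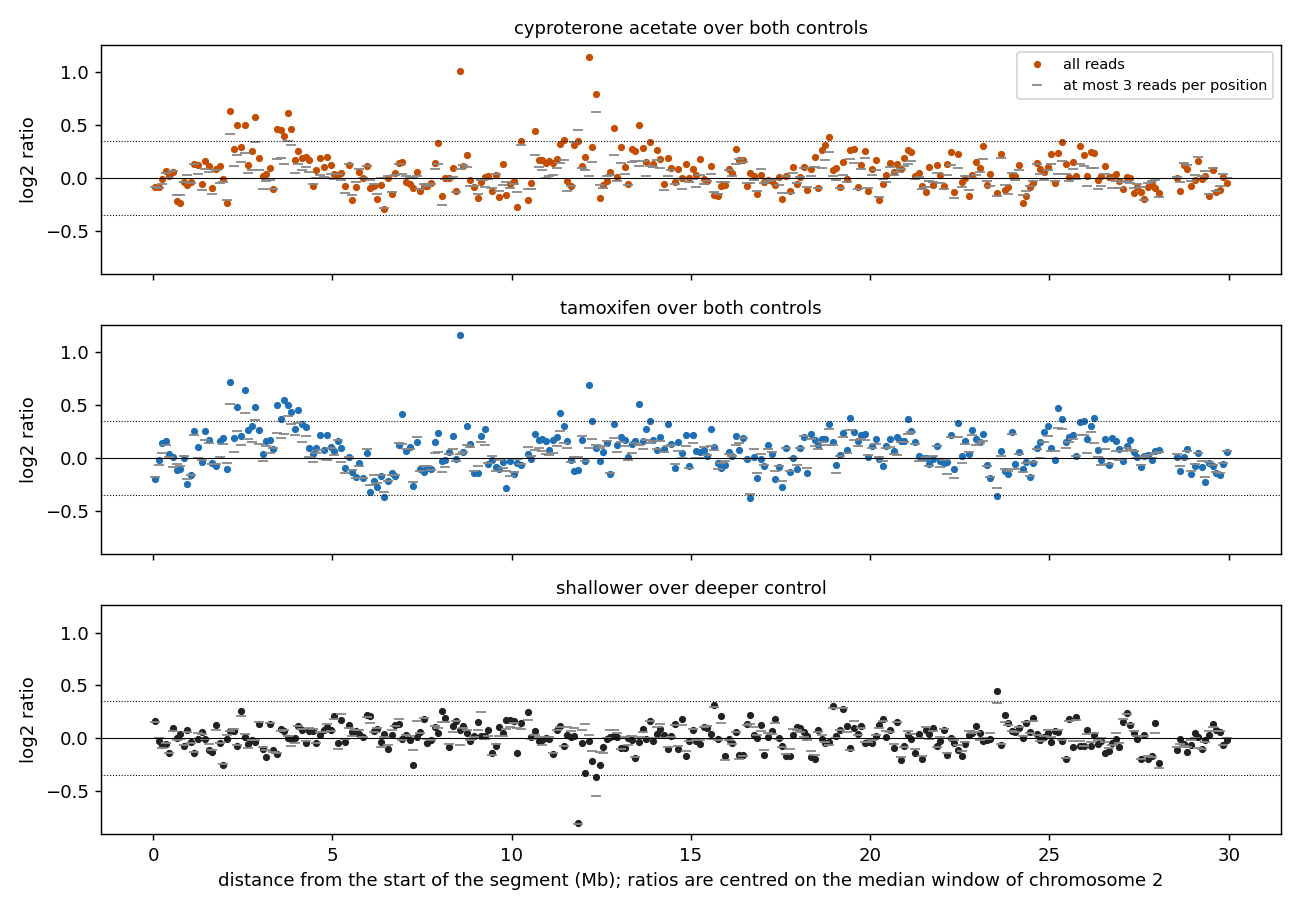
Log2 read ratio of each 100 kb window of the segment against its distance from the segment's start in Mb, for the 2 treatments over both controls and for the control pair; dots count all reads, grey dashes at most 3 per position, and dotted lines mark 0.35 and -0.35. The treated libraries have a run of high windows near 2 to 4 Mb whose dashes are also above 0, and isolated high dots whose dashes fall near 0, while the control pair has neither.

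The longest run of neighbouring windows above 0 was the one with tamoxifen from 187100001 to 190300000, and it was picked out after its values were seen. All of its 32 windows were above 0 with tamoxifen, between 0.03 and 0.72 and with a median of 0.24. With cyproterone acetate 30 of the 32 were above 0, with a median of 0.19 and a range from -0.11 to 0.63. In the control pair 19 were above 0 and the median was 0.05. The longest such run outside the segment had 21 windows with tamoxifen. With cyproterone acetate the longest run of the segment, 12 windows from 187100001, equalled the longest outside it, and in the control pair both were 9.

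This stretch of 3.2 Mb was dense in every library and denser still in the treated ones. Its median window held 536.75 reads (shallower control) and 575 reads (deeper control), 1.28 and 1.25 times the rest of the chromosome. With cyproterone acetate it held 907 reads (1.52 times) and with tamoxifen 786.75 (1.58 times). The ratios to the rest were therefore close in the controls and higher in both treated libraries. For tamoxifen the higher ratio follows from the choice of the stretch, made for windows above 0 with that treatment. Cyproterone acetate was set against the same controls, so its values are no independent check. With at most 3 reads per position the median log2 ratio of the stretch was 0.14 with tamoxifen and 0.06 with cyproterone acetate, and that of the control pair was 0.06. Without the stretch the segment had 10 higher windows of 262 with cyproterone acetate (3.82%) and 11 with tamoxifen (4.20%), and medians of 0.02 and 0.05.

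The window chr2:187100001-187200000 opens the stretch. It held 556 and 578.5 reads in the controls, 1214.5 with cyproterone acetate and 1076 with tamoxifen, on 433 positions of the control table. Its log2 ratio was 0.63 with cyproterone acetate (counting interval 0.51 to 0.75) and 0.72 with tamoxifen (0.60 to 0.84), while the controls differed by 0.07. Each treatment was higher over each control alone, at 0.59 and 0.67 for cyproterone acetate and 0.68 and 0.75 for tamoxifen. It kept 0.42 and 0.52 with at most 3 reads per position, and its 5 fullest 1 kb bins held 10.7% and 10.8% of the treated reads against 6.9% and 5.7% of the control reads. The excess there was spread over the window. The window just before it, chr2:187000001-187100000, was among the 5 lowest with cyproterone acetate, with 562 and 619.5 control reads, 693 with cyproterone acetate and 632 with tamoxifen, and ratios of -0.24 (-0.37 to -0.10) and -0.10 (-0.25 to 0.03).

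The other 3 windows of the stretch that are named here were each among the 5 highest of a treatment. The window chr2:188700001-188800000 held 499 and 546.5 reads in the controls, 1103.5 with cyproterone acetate and 853.5 with tamoxifen. Its ratios were 0.61 (0.49 to 0.74) and 0.50 (0.37 to 0.64), and 0.35 and 0.39 under the limit of 3 reads per position. The window chr2:187500001-187600000 held 537.5 and 584 control reads, 1094 with cyproterone acetate and 1008 with tamoxifen, for ratios of 0.50 and 0.64 that became 0.24 and 0.43 under that limit. The window chr2:188600001-188700000 held 601.5 and 626.5 control reads, 1116 and 1036.5 treated ones, for ratios of 0.40 and 0.55 that became 0.13 and 0.23. In these windows the controls differed by at most 0.07, and full positions carried part of the excess.

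The 2 highest windows of the segment with cyproterone acetate were of another kind, with the excess in a few 1 kb bins. With tamoxifen 1 of them, chr2:193500001-193600000, was also the highest, at 1.16. The other, chr2:197100001-197200000, came just after chr2:187100001-187200000, which was at 0.72. The window chr2:197100001-197200000 held 466 and 519.5 reads in the controls, 1501 with cyproterone acetate and 918.5 with tamoxifen, on only 170 positions. Its ratio was 1.14 (1.02 to 1.26) with cyproterone acetate and 0.70 (0.56 to 0.83) with tamoxifen. The 5 fullest 1 kb bins, chosen over all 4 libraries, took up 68.6% of the reads with cyproterone acetate and 56.7% with tamoxifen, against 36.4% and 40.0% of the control reads. In chr2:193500001-193600000 such bins took up 63.8% and 69.7% of the treated reads, but 36.1% and 28.7% of the control reads. There the cyproterone acetate library had 1362 reads and the tamoxifen library 1257.5, and the controls had 480 and 496.5. Under the limit of 3 reads per position the ratios of both windows were between 0.01 and 0.10.

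Few reads lie behind another of the 5 highest windows with cyproterone acetate. The window chr2:197300001-197400000 had 43.5 and 61.5 reads in the controls, 126 with cyproterone acetate and 64.5 with tamoxifen. Its ratio was 0.80 (0.41 to 1.18) with cyproterone acetate and 0.10 (-0.39 to 0.54) with tamoxifen, and it was 0.62 with cyproterone acetate under the limit of 3 reads per position. The controls themselves differed by -0.37 there, with an interval of -0.96 to 0.22, which is smaller in size than the 0.80 with cyproterone acetate. The difference between the treatments, 0.71 on the log2 scale, was not tested.

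The lowest windows were closer to 0. The window chr2:191400001-191500000 had 345.5 and 366.5 reads in the controls, 400.5 with cyproterone acetate and 317.5 with tamoxifen. It was at -0.30 (-0.48 to -0.12) and -0.37 (-0.56 to -0.17), with the controls 0.04 apart, and kept -0.28 and -0.32 with at most 3 reads per position. It was lower over each control with either treatment, and it lies in the thin part from 190 to 195 Mb. The nearby chr2:191000001-191100000 was at -0.32 (-0.51 to -0.13) with tamoxifen and -0.10 (-0.27 to 0.07) with cyproterone acetate, from 379.5 and 358.5 control reads against 340 and 476.5. The other windows below -0.35 with tamoxifen, chr2:201600001-201700000 and chr2:208500001-208600000, had 63 and 70.5 tamoxifen reads, and their intervals, -0.83 to 0.06 and -0.80 to 0.04, included 0.

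In windows of 10 kb with at least 30 reads the same excess appeared at lower relative size, with a counting SD of 0.240 in place of 0.0844 for cyproterone acetate. With cyproterone acetate 494 of 2672 windows of the segment were above 0.35, or 18.5%, against 14.2% of the chromosome, and 303 were below -0.35, or 11.3% against 12.8%. With tamoxifen 533 of 2667 were above, or 20.0% against 13.9%, and 10.2% were below, against 13%. In the control pair 13.7% were above and 13.4% below, against 14.4% and 15.7% of the chromosome. Higher windows were thus more frequent than on the chromosome with each treatment and not in the control pair. The minimum of 30 reads counts treated reads too, which favours windows that are full in the treated library.

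Further 10 kb windows with a treated excess were these. The window chr2:193780001-193790000 held 52.5 and 43.5 reads in the controls, 190 with cyproterone acetate and 178.5 with tamoxifen, for log2 ratios of 1.52 (1.16 to 1.89) and 1.69 (1.32 to 2.06). The window chr2:187270001-187280000, in the long stretch, held 29 and 20 control reads, 97 with cyproterone acetate and 96 with tamoxifen (1.52 and 1.76). In chr2:191980001-191990000 there were 43 and 58 control reads against 172 and 221 treated ones (1.30 and 1.93), and in chr2:198590001-198600000 72 and 89 against 301.5 and 320.5 (1.44 and 1.79). The last 2 each contain a 1 kb bin that is among the 10 fullest of each treated library, with 85.5 and 125.5 of the treated reads in the former and 119 and 119.5 in the latter. In all 4 windows each treated library held more reads than both controls together. The highest ratio with tamoxifen, 3.12 in chr2:193080001-193090000, rests on 3 and 2 control reads against 27, with an interval of 1.84 to 4.97.

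The lowest 10 kb windows had few reads. With cyproterone acetate chr2:208840001-208850000 was at -1.82 (-3.31 to -0.72) from 7 reads against 21 and 17 in the controls, while tamoxifen had 14.5. The window chr2:211980001-211990000 was low with both treatments, at -0.97 (-1.83 to -0.22) and -0.95 (-1.88 to -0.16), from 19 and 16 treated reads against 28 and 27. With tamoxifen chr2:208250001-208260000 was at -1.01 (-1.71 to -0.43), from 28.5 reads against 52.5 and 48.5. Among so many windows, a few intervals that exclude 0 arise from counting alone.

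At 1 kb the segment was richer than the rest of the chromosome in bins that were full in any library. Bins with at least 10 times a library's mean numbered 8 in each control, 18 with cyproterone acetate and 38 with tamoxifen. Per 100000 bins that was 26.7 and 26.7 in the controls against 9.30 and 8.04 elsewhere, 60.0 against 27.5 with cyproterone acetate and 127 against 54.6 with tamoxifen. Of 2074 bins with at least 30 reads, 102 held at least a 4-fold higher share of the reads with cyproterone acetate than in the controls, or 4.92%, against 3.59% of the chromosome. With tamoxifen it was 113 of 1570 bins, or 7.20%, against 4.45% of the chromosome. A share at least 4-fold lower was found in 10 bins with cyproterone acetate (0.482% against 1.15%) and in 6 with tamoxifen (0.382% against 0.435%). The read minimum counts treated reads too, which favours bins that are full in the treated library.

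The long stretch from 187100001, itself picked for treated windows above 0, held 30 of them with cyproterone acetate and 33 with tamoxifen. That is 8.13% and 13.4% of its bins with enough reads, against 4.22% and 6.05% in the other windows of the segment and 3.30% and 3.93% on the rest of the chromosome. Per Mb it had 9.38 and 10.3 of them, against 2.69 and 2.99 and against 1.36 and 1.38, a rate that also rises with the share of bins that reach 30 reads. That share was 11.5% and 7.72% in the stretch and 4.11% and 3.52% on the rest of the chromosome. They lay in 17 and 18 of its 32 windows of 100 kb.

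Among single bins, chr2:198596001-198597000 held 5 and 11 reads in the controls, 119 with cyproterone acetate and 119.5 with tamoxifen. Its share was 10.6 times that of the controls with cyproterone acetate (6.29 to 19.2) and 12.7 times with tamoxifen (7.57 to 23.1). The bin chr2:193573001-193574000 held 24 and 16.5 control reads against 197 and 215.5 treated ones, or 6.96 times (5.00 to 10.2) and 9.08 times (6.55 to 13.3). In chr2:205783001-205784000 there were 11 and 4 control reads, 64.5 with cyproterone acetate and 105 with tamoxifen (6.16 and 11.9 times). In chr2:211207001-211208000 there were 7 and 6, 45 and 85 (4.96 and 11.2 times). In these bins the controls differed from each other by 0.50 to 3.02 times, on few reads.

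A group of adjoining bins, picked for many reads, was fuller with cyproterone acetate than with tamoxifen. The bin chr2:197138001-197139000 held 49 and 63 reads in the controls, 391.5 with cyproterone acetate and 166 with tamoxifen, or 5.00 times (4.05 to 6.24) and 2.53 times (1.98 to 3.24) the controls. The bin chr2:197140001-197141000 held 46 and 65, 381 and 160 reads, or 4.91 times (3.97 to 6.13) and 2.46 times (1.92 to 3.16). The bin between them, chr2:197139001-197140000, held 20 and 25, 152.5 and 71.5 reads, or 4.85 times (3.45 to 6.90) and 2.71 times (1.86 to 4.06). The counting intervals of the treatments overlapped in that bin and did not in the outer ones. With 1 library each the spread between animals is not known.

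Other bins that were full in the controls had no excess in the treated libraries. The bin chr2:194803001-194804000 held 62.5 and 56 control reads, 42 with cyproterone acetate and 38 with tamoxifen, which is 0.51 times (0.35 to 0.73) and 0.55 times (0.37 to 0.80) the control share. The bin chr2:194731001-194732000 held 44.5 and 35 control reads against 34 and 24 treated ones (0.61 and 0.52 times). In chr2:194566001-194567000 the values were 42 and 44, 44.5 and 48 (0.74 and 0.95 times), with intervals that included 1. The bin chr2:197079001-197080000 had 26.5 reads (shallower control) and 97 reads (deeper control), so the controls alone differ there by more than either treatment differs from their pool. Bins were chosen here for many control reads, which favours low ratios.

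In the typical window the treated excess over the rest of the chromosome appeared at high density. The highest single windows with cyproterone acetate, at 197100001, 193500001 and 197300001, held 519.5, 496.5 and 61.5 reads of the deeper control. With tamoxifen the windows at 193500001, 187100001 and 197100001 were highest, with 496.5, 578.5 and 519.5 such reads. All of these lay below 600 reads, where the densest class used here begins. To keep the ratio apart from the count used for sorting, windows were sorted by the reads of the deeper control and the ratio was taken over the shallower one. Windows with 600 or more reads of the deeper control made up 18.0% of the segment (53 windows) and 4.46% of the rest (103 windows). Their median log2 ratio with cyproterone acetate was 0.14 in the segment and 0.00 elsewhere, and with tamoxifen 0.19 and 0.07. From 500 to 600 reads the medians were 0.08 against 0.02 and 0.13 against 0.06. Below 500 reads the segment and the rest were within 0.04 of each other in each class, with medians between -0.03 and 0.01 for cyproterone acetate and between -0.06 and -0.01 for tamoxifen. Across windows the Spearman correlation of the ratio with the deeper control's reads was 0.35 in the 294 windows of the segment and 0.11 in the 2310 others with cyproterone acetate, and 0.44 and 0.32 with tamoxifen. The windows share their libraries and are not independent, and no test was made of the difference.

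**Figure D5:**
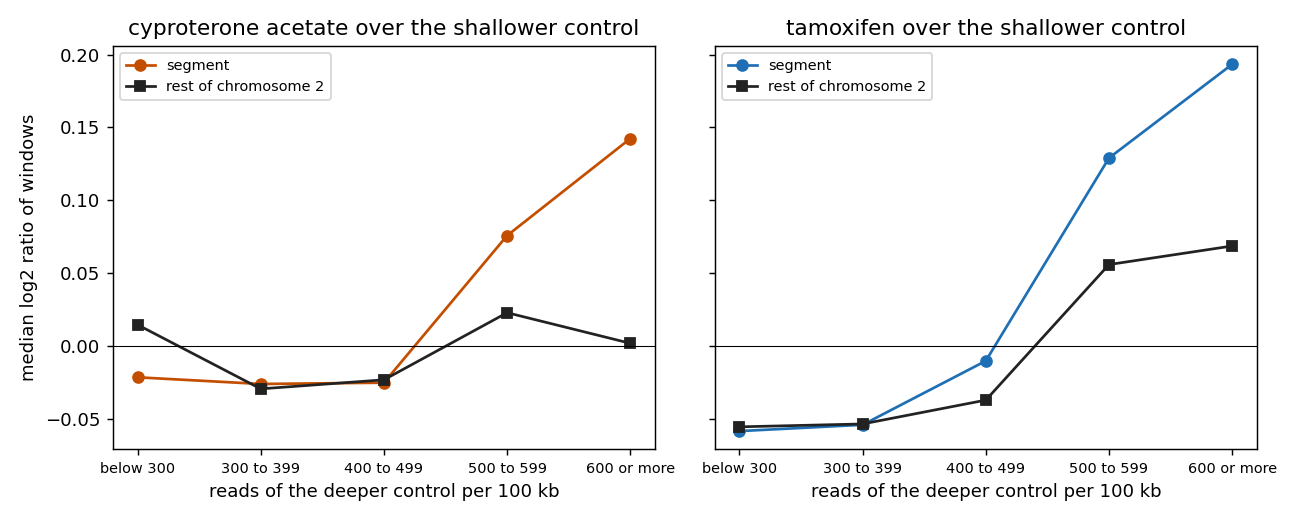
Median log2 ratio of each treated library over the shallower control, for 100 kb windows sorted into 5 classes by the reads of the deeper control, in the segment and on the rest of chromosome 2. In the 3 thinner classes the 2 lines are within 0.04 of each other, and in the densest class the segment reaches 0.14 with cyproterone acetate and 0.19 with tamoxifen, against 0.00 and 0.07 elsewhere.

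The calls at single positions were close to those on the rest of the chromosome in total, and slightly more frequent in the higher direction. By the authors' deposited tables, 14.4% of its positions (counting interval 14.2% to 14.7%) had an occupancy FDR of at most 0.05 for cyproterone acetate, against 13.4% of the chromosome and 13.3% of the rest. For tamoxifen the authors' deposited table gave 17.0%, against 16.6% of the chromosome and 16.6% of the rest, and for the control pair 16.0%, against 15.7% and 15.7%. Calls in the higher direction covered 6.80% of the positions with cyproterone acetate in the authors' deposited table (5.86% of the chromosome, 5.73% of the rest), 11.2% with tamoxifen (10.7% and 10.6%) and 10.9% in the control pair (10.7% and 10.7%). Where the authors' deposited tables have an FDR no larger than 0.01, they covered 2.46% with cyproterone acetate (1.92% and 1.85%), 2.04% with tamoxifen (1.58% and 1.52%) and 1.58% in the control pair (1.51% of the chromosome). Of the calls at 0.05 in the segment, 82.7%, 86.4% and 93.6% had no read on one side.

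The authors' deposited tables put 36.3% of positions at least 2-fold higher and 37.7% at least 2-fold lower with cyproterone acetate, against 37.4% and 38.1% of the chromosome. For tamoxifen these values in the authors' deposited table were 32.8% and 38.0%, against 33.1% and 39.1%, and for the control pair 31.1% and 46.5%, against 31.1% and 47.3%.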

How the data were processed

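Fragments of sperm chromatin protected from micrococcal nuclease were sequenced from 4 libraries. The submitters' processing notes name Bowtie2, SAMtools 1.4 and the build rn6; what called the positions was not found in these sources. Each deposited table lists positions of 200 bp. Summit occupancy is a deposited coverage signal with the authors' scaling, fuzziness is the authors' score, and the log2 ratios, summit distances and FDR (an adjusted p-value) are also the authors' own, per the file headers. In the treatment tables the columns headed control hold the treated library and those headed treat the pooled controls; all ratios were turned so that positive means higher in the treated library. Not used were 14 more columns of library or pool values. The headers do not say which control is replicate 1, so the libraries are called shallower and deeper.

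Occupancy was divided by its most frequent value above 0, the value of 1 read. Treated reads came from the library's own table and control reads from the control table, so positions called in one and not the other affect the ratios. Windows of 100 kb (at least 20 positions in each table) and 10 kb were summed. Those of 10 kb needed at least 30 reads in the treated library and both controls together. For the control pair the cyproterone acetate library was counted as the treated one. Then 0.5 reads were added, and log2 ratios were centred on the median window of chromosome 2. Intervals are 95% exact binomial ones, except that of the share ratio of the segment, a normal approximation on the log scale. The windows, bins and positions named are the 5 at either end of a ranking (10 for the 1 kb bins), and the windows of other kinds were chosen after their values were seen. The segment and all lists were chosen with earlier results of these data known. Python 3.11.15, numpy 2.4.6, pandas 2.3.3 and scipy 1.17.1 were used; the scripts were tested on simulated data. Leaving out each control, a limit of 3 reads per position, other pseudocounts, centring, window sizes and thresholds were tried. The limit of 3 reads was the same for every library, whatever its depth.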

Additional observations from a re-analysis of the deposited data

How the results depend on the processing

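Of 102 recalculations, 43 stayed within the spread allowed for their value, 59 moved beyond it and 0 changed direction. Many of these values are counts or percentages, which have no direction to change. Coverage is the main limit: most positions had few reads, ratios of small windows rest on few reads, and 1 library per treatment gives no spread between animals. No paired analysis was possible because each treatment has 1 library and the columns of the control table carry no replicate number. The cause of the shifts below was not tested, except where fewer reads or distances enter by construction.

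With at most 3 reads per position, windows above 0.35 fell from 19 to 4 (cyproterone acetate), 21 to 4 (tamoxifen) and 1 to 0 (control pair), the window medians became 0.0029, 0.046 and 0.023, the log2 share ratios of the segment 0.015 and 0.048, and the reads ratios of the treated libraries 1.13 and 1.15, with 1.14 and 1.14 in the controls. Without the stretch from 187100001, an alternative chosen after seeing the data, 10 and 11 windows were above 0.35, with medians of 0.017 and 0.055. Centred on total reads, the medians were 0.015 and 0.050, so that of cyproterone acetate no longer exceeded the 0.017 of the control pair. Leaving out 1 control gave medians of 0.038 to 0.049 and 0.076 to 0.077, counts of 21 to 22 and 22 to 24, and share ratios of 0.068 to 0.082 and 0.083 to 0.098. Against the 30 Mb on either side the share ratios were 0.051 and 0.065, and against the pooled side of each treatment table they were 0.063 and 0.074.

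Reads in the segment over the rest, against the 30 Mb on either side, were 1.15 (shallower control) and 1.22 (tamoxifen). In 10 kb windows they were 1.12, 1.10, 1.13 and 1.16 (shallower and deeper control, cyproterone acetate, tamoxifen), and with totals, also chosen after seeing the data, 1.09, 1.08, 1.15 and 1.17. Position density at 2 or more reads was 1.15 (control table), 1.12 and 1.16 (treatments) times the rest. Reads per position, as a ratio of medians, were 1.5, 1.5, 1 and 1.33 times the rest, and as a ratio of means 1.02, 1.02, 1.10 and 1.08, since medians move in steps of 0.5 reads. With 2 or more reads, 25.2%, 34.9% and 30.4% of distances lay within 150 to 250 bp, and 26.5%, 28.9% and 27.3% within 160 to 220 bp. At 5 or more reads the fuzziness differences were 1.14 and 0.88 (treated), and 0.11 and 0.13 (pooled sides). By the authors' deposited tables, an FDR of at most 0.01 was met by 3.21%, 3.86% and 3.73% of positions (control pair, cyproterone acetate, tamoxifen; 3.13%, 3.35% and 3.3% of the chromosome), and at most 0.05 by 36.8%, 33.8% and 27.5% of those with 3 or more reads (37.5%, 34.1% and 27.8%). Differences of 4-fold covered 66.9%, 56.3% and 55.7% (68.3%, 58.6% and 57.9%), and 2-fold ones 75.1% and 75.0% of positions with 3 or more reads (control pair, cyproterone acetate; 75.4% and 76.8%).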
